A study of Homo sapiens with 15 samples.

Results

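The immediate early genes EGR1, FOS, FOSB, FOSL1, FOSL2, JUN, JUNB, JUND, IER2 and MYC were followed across an experiment in granulosa cells, as 10 genes chosen by symbol from the 37787 in the count table. RNA came from HGrC1, an immortalized human granulosa cell line, as 15 libraries from 5 conditions, each with a replicate A, B and C (n = 3). Cells were transiently transfected with empty vectors (Vectors), with SMAD3 and wild-type FOXL2 (FOXL2WT), with SMAD3 and the mutant of adult granulosa cell tumors (FOXL2C134W), or with either of these pairs plus FOXO1-3A, a constitutively active FOXO1 (FOXL2WT + FOXO1 and FOXL2C134W + FOXO1). All cells were lipofected for 4 h and then kept for 24 h in medium without serum. Every condition rests on 1 line that also transcribes its own FOXL2, and the labels do not say that the replicates of a condition came from separate experiments, so p-values measure the spread between these samples. In bulk RNA, a change in the number of transfected cells cannot be told apart from a change in each cell.

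Immediate early genes are transcribed within minutes of a growth factor, serum or stress signal, without new protein synthesis, and their mRNAs are short-lived. The FOS proteins (FOS, FOSB, FOSL1, FOSL2) pair with the JUN proteins (JUN, JUNB, JUND) to form AP-1, which binds the TGANTCA site, and the composition of the pair sets how strongly AP-1 activates. EGR1 is a zinc finger factor, IER2 a nuclear regulator, and MYC a driver of growth and ribosome production. In granulosa cells, EGR1 and AP-1 are known for their rise after gonadotropins and around ovulation.

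The libraries held 14962245 to 25339094 estimated counts assigned to genes, and all 10 genes were among the 13868 tested. The granulosa label was checked with 14 markers, of which 9 were above 1 CPM (counts scaled to library size with TMM factors) on average in Vectors. GATA4 lay between 129 and 154 CPM and WT1 between 38.8 and 47.7 CPM, whereas FSHR was at 0 in every library and CYP19A1 and INHA had at most 4 counts. Among markers of other cells, 0 of 3 theca, 2 of 3 luteinized, 2 of 3 immune, 2 of 3 endothelial and 1 of 2 epithelial genes were above 1 CPM in Vectors. CD68 was highest at 88.7 to 117 CPM, followed by EPCAM (4.78 to 7.72), CDH5 (2.22 to 4.6) and STAR (1.38 to 3.84), while LHCGR was at 0 and PTPRC had at most 5 counts. The plasmids were not matched in RNA between the FOXL2 forms. FOXL2 stood at 561 ± 5.89 CPM (SD, n = 3) in FOXL2WT and 147 ± 27.0 CPM in FOXL2C134W, and SMAD3 at 2768 ± 154 CPM and 843 ± 37.4 CPM. Any difference between those conditions therefore cannot be told apart from a difference in the amount of plasmid RNA. No condition received SMAD3 without a FOXL2 plasmid, so a difference from Vectors cannot be divided between SMAD3 and FOXL2. By immunoblot of cells cultured in parallel, the study reported that protein of both FOXL2 forms and of FOXO1 was balanced. SMAD3 protein was not part of that report.

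Some features did not enter the choice of the genes. JUN, JUNB and JUND have a main transcript of 1 exon, and 4 of the 10 genes (FOSB, IER2, JUNB, JUND) lie on chromosome 19. How many of all genes have these features was not counted. The GC content of the transcripts ran from 53.0% in FOS to 69.9% in JUND, above the median of 49.1% over 16131 expressed genes for each of the 10. RefSeq promoter windows (GRCh38.p14) were found for 8 genes, and those of FOSL1 and MYC were not used here. The 250 bases before the start are shown for EGR1 and JUNB, since these genes moved in opposite directions in FOXL2C134W. Bases further upstream were not searched. Capitals mark the CArG boxes found in this window, the sites of SRF, in EGR1 (chr5:138465229-138465478, plus strand) and the forkhead letters TGTTTAC in JUNB (chr19:12791236-12791485, plus strand).
EGR1: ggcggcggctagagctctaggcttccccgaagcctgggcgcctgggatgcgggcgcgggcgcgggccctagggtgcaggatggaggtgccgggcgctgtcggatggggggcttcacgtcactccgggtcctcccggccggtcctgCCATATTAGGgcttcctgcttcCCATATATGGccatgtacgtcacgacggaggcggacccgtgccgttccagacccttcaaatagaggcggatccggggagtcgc
JUNB: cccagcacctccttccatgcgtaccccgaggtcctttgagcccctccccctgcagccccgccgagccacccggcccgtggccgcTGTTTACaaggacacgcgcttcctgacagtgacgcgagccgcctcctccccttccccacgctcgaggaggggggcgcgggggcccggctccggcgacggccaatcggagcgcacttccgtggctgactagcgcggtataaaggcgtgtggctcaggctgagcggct

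The CArG boxes of EGR1 began 105 and 83 bases before the start, and 1.16% of 35116 human windows of this length held such a box. The forkhead letters of JUNB began 166 bases before the start and occurred in 2.98% of windows. Searched on both strands, the cAMP response letters TGACGTCA (1.65% of windows) were found in JUND, the ETS letters CCGGAA (14.5%) in FOSB and IER2, and the SP1 letters GGGCGG (42.6%) in 6 of the 8 genes. The AP-1 letters TGANTCA (6.57%), the EGR letters GCGTGGGCG (0.72%) and the SMAD letters CAGACA (13.6%) were in 0 of the 8 windows, and no match overlapped another motif. A match describes letters in a window and is not evidence of binding.

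Levels between genes were compared as TPM, which corrects for transcript length. FOSL1, which encodes FRA-1, was highest with a median of 83.4 TPM over the 15 libraries and a range of 74.7 to 97.3. MYC (55.0 to 84.6 TPM), JUN (63.1 to 74.3) and IER2 (58.2 to 66.2) followed, with ranges that overlapped one another. JUND (45.9 to 59.9 TPM), FOSL2 (43.4 to 57.8) and JUNB (34.8 to 54.4) overlapped one another in turn. The genes best known from acute stimulation were lowest, with FOS at 2.97 to 5.34 TPM, EGR1 at 2.13 to 4.17 TPM and FOSB at 0.239 to 1.73 TPM. FOS and EGR1 overlapped, and both lay above every library of FOSB.

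**Figure D1:**
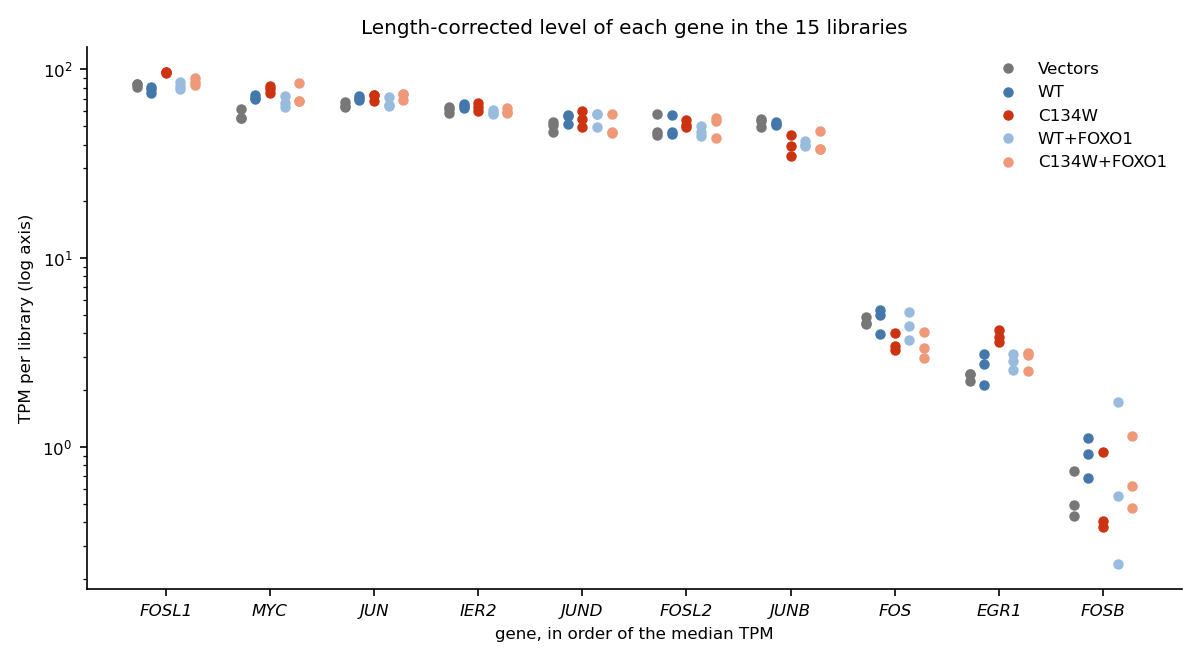
TPM of each gene in the 15 libraries on a log axis, 1 point per library, colored by condition and ordered by median. FOSL1, MYC, JUN, IER2, JUND, FOSL2 and JUNB lie between 34.8 and 97.3 TPM, and FOS, EGR1 and FOSB lie below 5.34 TPM.

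Within the FOS family, FOSL1 made up 60.8% ± 2.56 (SD over 15 libraries) of the summed TPM and FOSL2 35.6% ± 2.45, against 3.02% ± 0.665 for FOS and 0.521% ± 0.284 for FOSB. Within the JUN family the shares were closer, with JUN at 38.4% to 46.7%, JUND at 28.7% to 35.9% and JUNB at 22.7% to 32.6%. The share of JUNB was 31.4% ± 1.38 (SD, n = 3) in Vectors and 29.1% ± 0.467 in FOXL2WT. It was 23.9% ± 1.92 in FOXL2C134W, 24.9% ± 0.888 in FOXL2WT + FOXO1 and 25.1% ± 1.16 in FOXL2C134W + FOXO1. The libraries of the first 2 conditions all lay above those of the other 3, while JUN went from 38.7% ± 0.243 in Vectors to 43.3% ± 1.23 in FOXL2C134W. These TPM values depend on how Salmon divided reads between transcripts. EGR1, JUN and JUNB have 1 transcript each in the files, but the 500-base transcript JUND-202 took 32.9% to 47.5% of the TPM of JUND, and the 12 transcripts of FOSB with reads changed places between libraries.

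**Figure D2:**
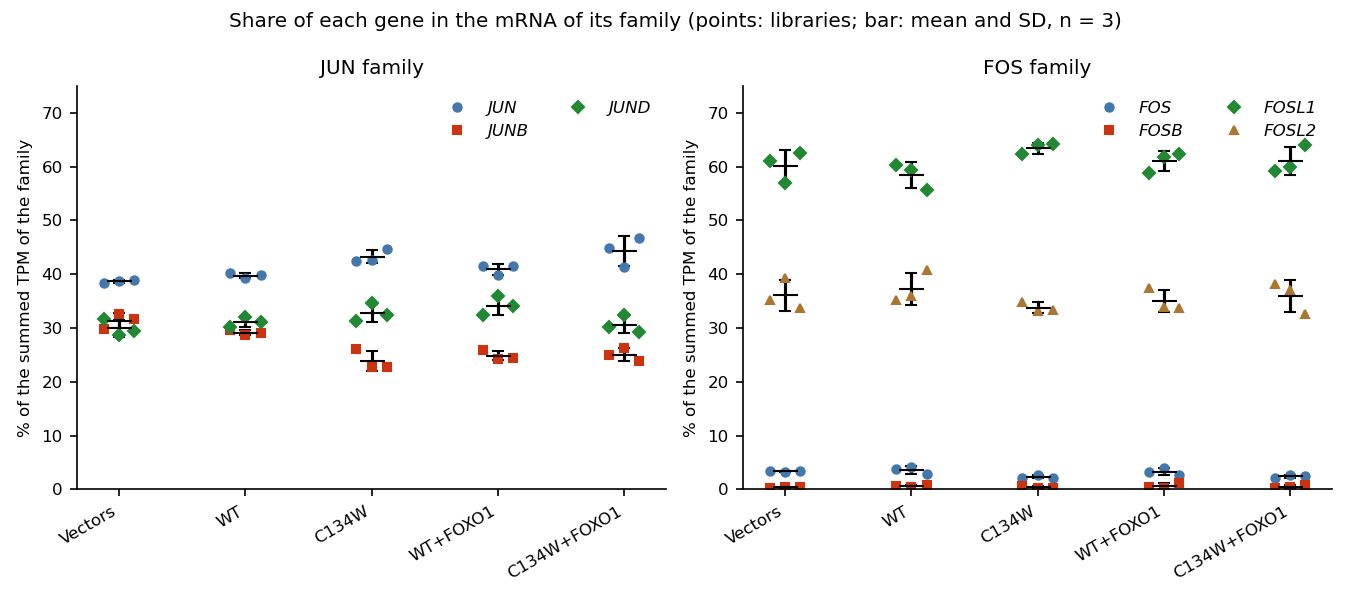
Share of each gene in the summed TPM of the JUN family and of the FOS family, in percent, with points for libraries and bars for the mean and SD (n = 3). JUNB lies at 28.7% or more in Vectors and FOXL2WT and at 26.3% or less elsewhere, and FOSL1 makes up over 55% of the FOS family in all libraries.

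The main question of the study was how FOXL2C134W differs from FOXL2WT. EGR1 and FOSL1 were higher and FOSB and JUNB lower in FOXL2C134W, 4 genes of 10, while FOSL2, JUN, JUND, IER2, MYC and FOS were not called. Over all 13868 genes, 11.2% were called in this comparison, 7.13% higher and 4.12% lower (edgeR, adjusted p under 0.05). The median log2 fold change of the 10 genes was -0.04 and that of all genes was -0.01. Against Vectors, FOXL2C134W had 4 genes called, EGR1, FOSL1 and MYC higher and JUNB lower, where the background was 14.7% (7.48% higher and 7.24% lower). FOXL2WT against Vectors had 1, MYC, with a background of 6.07% (2.46% higher and 3.61% lower). Comparisons that share a condition share its libraries and are not independent.

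**Figure D3:**
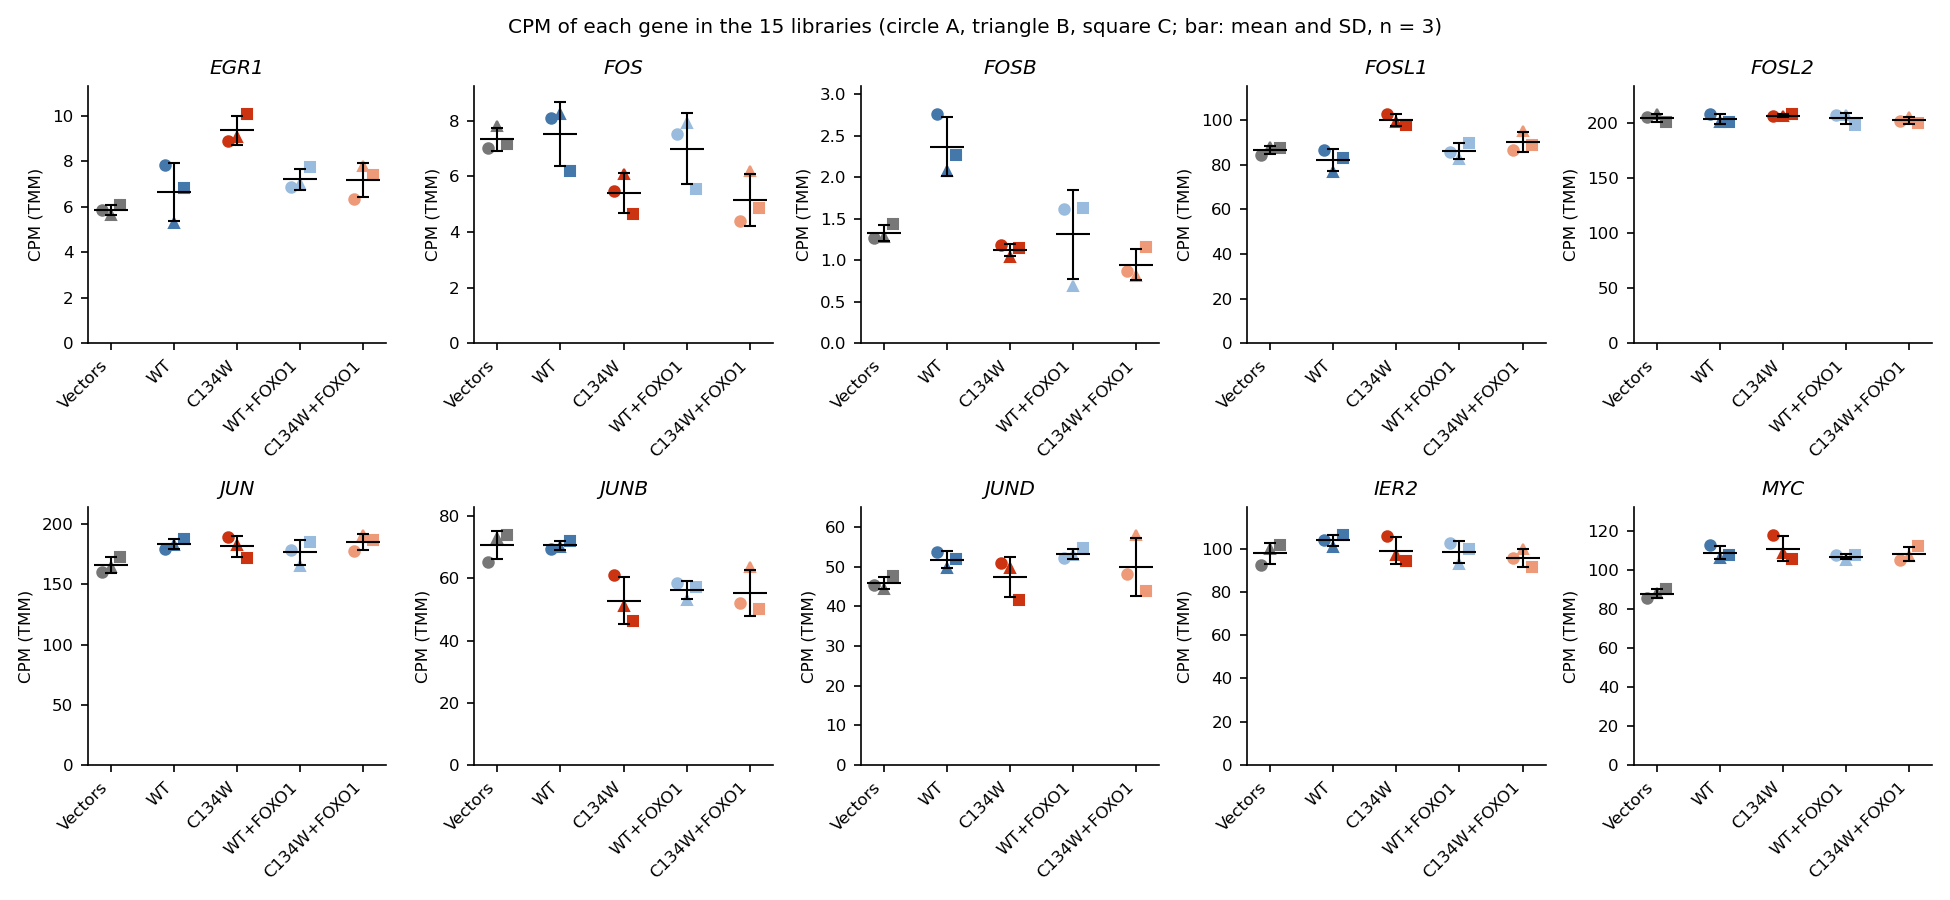
CPM of each gene in each library by condition, with circles for replicate A, triangles for B and squares for C, and a bar for the mean and SD (n = 3). EGR1 and FOSL1 are highest in FOXL2C134W, FOSB is highest in FOXL2WT, MYC is lowest in Vectors, and JUNB is highest in Vectors and FOXL2WT.

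EGR1 lies on chromosome 5 from 138465479 to 138469303 (GRCh38) and had 79 to 225 counts per library. It measured 5.84, 5.64 and 6.08 CPM in Vectors A, B and C, and 7.83, 5.30 and 6.84 CPM in FOXL2WT. In FOXL2C134W it measured 8.90, 9.07 and 10.1 CPM, above each of the other 12 libraries. EGR1 rose 1.59-fold from Vectors to FOXL2C134W (log2 fold change 0.67, standard error 0.12, edgeR adjusted p = 0.000774). From FOXL2WT to FOXL2C134W the rise was 1.39-fold (0.48, standard error 0.12, edgeR adjusted p = 0.0136). This second call rested on single libraries, since the value was 0.36 (edgeR adjusted p = 0.0743) without FOXL2WT replicate B and 0.42 (edgeR adjusted p = 0.0676) without FOXL2C134W replicate C. With FOXO1 the values were 6.86, 7.01 and 7.75 CPM in FOXL2WT + FOXO1 and 6.32, 7.80 and 7.40 CPM in FOXL2C134W + FOXO1. The libraries of FOXL2C134W + FOXO1 all lay below those of FOXL2C134W, but the log2 fold change of -0.38 (95% interval -0.62 to -0.14, edgeR adjusted p = 0.149) was not called.

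In the FOS family, FOSL1 on chromosome 11 (65892049 to 65900573) was the abundant member that moved. It measured 84.4, 88.0 and 87.3 CPM in Vectors, 86.3, 76.8 and 83.1 CPM in FOXL2WT and 103, 98.9 and 97.9 CPM in FOXL2C134W. The 3 FOXL2C134W libraries again lay above the other 12, of which the highest was 94.9 CPM. FOSL1 rose 1.15-fold against Vectors (log2 fold change 0.21, standard error 0.05, edgeR adjusted p = 0.00764) and 1.22-fold against FOXL2WT (0.28, standard error 0.05, edgeR adjusted p = 0.00125). It measured 85.7, 82.6 and 89.8 CPM in FOXL2WT + FOXO1 and 86.6, 94.9 and 88.7 CPM in FOXL2C134W + FOXO1. The step from FOXL2C134W to FOXL2C134W + FOXO1 was -0.15 (95% interval -0.25 to -0.05, edgeR adjusted p = 0.199) and was not called.

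FOSB, on chromosome 19 from 45467995 to 45475179, had only 15 to 53 counts per library, so its values are coarse. It measured 1.26, 1.29 and 1.44 CPM in Vectors and 2.77, 2.08 and 2.27 CPM in FOXL2WT. It was at 1.19, 1.04 and 1.15 CPM in FOXL2C134W, at 1.61, 0.696 and 1.64 CPM in FOXL2WT + FOXO1 and at 0.877, 0.809 and 1.16 CPM in FOXL2C134W + FOXO1. The 3 FOXL2WT libraries lay above the other 12 in CPM. In TPM they did not, at 0.922, 0.685 and 1.11, against 0.945 in FOXL2C134W replicate A and 1.73 in FOXL2WT + FOXO1 replicate C. FOSB was lower in FOXL2C134W than in FOXL2WT (log2 fold change -1.07, standard error 0.26, edgeR adjusted p = 0.0131), and lower in FOXL2C134W + FOXO1 than in FOXL2WT (-1.32, standard error 0.27, edgeR adjusted p = 0.0231). The first call was lost without FOXL2WT replicate A (-0.95, edgeR adjusted p = 0.0664) and without FOXL2C134W replicate B (-1.01, edgeR adjusted p = 0.0647). The second was lost when any 1 of its 6 libraries was left out, with edgeR adjusted p from 0.05 to 0.0916. The difference of 0.83 between FOXL2WT and Vectors (95% interval 0.29 to 1.38, edgeR adjusted p = 0.067) was not called.

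FOS, the founding member of the family, had 95 to 179 counts per library. It measured 7.02, 7.81 and 7.16 CPM in Vectors, 8.09, 8.26 and 6.20 CPM in FOXL2WT, and 5.46, 6.10 and 4.65 CPM in FOXL2C134W. The FOXL2C134W libraries lay below both other conditions, but the log2 fold change was -0.43 (edgeR adjusted p = 0.0657) against Vectors and -0.46 (edgeR adjusted p = 0.0681) against FOXL2WT, neither past the threshold. The second was called without FOXL2WT replicate C (-0.58, edgeR adjusted p = 0.0381). Within conditions, FOS lay above its mean in all 5 B libraries and below it in all 5 C libraries. With a replicate block, FOS was called in FOXL2C134W against Vectors (edgeR adjusted p = 0.0164) and against FOXL2WT (edgeR adjusted p = 0.0169). FOS measured 7.54, 7.93 and 5.53 CPM in FOXL2WT + FOXO1 and 4.39, 6.18 and 4.86 CPM in FOXL2C134W + FOXO1. FOSL2, which encodes FRA-2, ranged only from 199 to 209 CPM over all 15 libraries. Its log2 fold changes between conditions had 95% intervals that stayed between -0.10 and 0.09, the narrowest of the 10 genes.

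In the JUN family, JUNB on chromosome 19 (12791486 to 12793315) fell in FOXL2C134W. It measured 65.5, 72.9 and 74.0 CPM in Vectors, 69.5, 70.3 and 72.1 CPM in FOXL2WT and 61.2, 51.2 and 46.2 CPM in FOXL2C134W. The log2 fold change was -0.42 against Vectors (standard error 0.09, edgeR adjusted p = 0.00385) and -0.42 against FOXL2WT (standard error 0.09, edgeR adjusted p = 0.00605), a level 0.75 times that of either. JUNB measured 58.5, 53.1 and 57.4 CPM in FOXL2WT + FOXO1 and 52.1, 63.7 and 50.3 CPM in FOXL2C134W + FOXO1. Every library of Vectors and FOXL2WT lay above every library of the other 3 conditions. Adding FOXO1 to FOXL2WT gave -0.33 (standard error 0.09, edgeR adjusted p = 0.257), which edgeR did not call and DESeq2 did (-0.33, adjusted p = 0.0487). Adding it to FOXL2C134W gave 0.06 (95% interval -0.13 to 0.26, edgeR adjusted p = 0.879).

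JUN, the strongest activator of the family, measured 160, 165 and 173 CPM in Vectors, 179, 183 and 188 CPM in FOXL2WT and 190, 183 and 172 CPM in FOXL2C134W. The libraries of FOXL2WT lay above those of Vectors, and those of FOXL2C134W overlapped both. The log2 fold changes against Vectors were 0.14 (edgeR adjusted p = 0.0878) and 0.13 (edgeR adjusted p = 0.0796), neither called, although the second was called without FOXL2C134W replicate C (0.17, edgeR adjusted p = 0.0459). Between FOXL2C134W and FOXL2WT the difference of -0.01 had a 95% interval of -0.12 to 0.09. JUND, often a restraint on growth, ranged from 41.7 to 58.0 CPM. It measured 45.4, 44.5 and 47.6 CPM in Vectors and 53.8, 49.7 and 51.8 CPM in FOXL2WT, which did not overlap, with a log2 fold change of 0.18 (95% interval -0.00 to 0.35, edgeR adjusted p = 0.246).

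MYC, on chromosome 8, was the member that separated Vectors from all other conditions, each of which received SMAD3 as well as FOXL2. It measured 85.5, 88.2 and 90.1 CPM in Vectors, and the other 12 libraries ran from 105 to 118 CPM without overlap. MYC rose 1.24-fold in FOXL2WT (log2 fold change 0.31, standard error 0.05, edgeR adjusted p = 0.000463) and 1.26-fold in FOXL2C134W (0.34, standard error 0.05, edgeR adjusted p = 7.4e-05). Between the FOXL2 forms the difference was 0.03, with a 95% interval of -0.07 to 0.12. The 3 immune markers summed to 104 to 118 CPM in Vectors and 90.2 to 98.4 CPM in the other 12 libraries, nearly all of it CD68, while PTPRC had at most 5 counts, and their part in the MYC result was not tested. IER2 ranged from 91.5 to 106 CPM, was called in none of the comparisons, and had 95% intervals between -0.23 and 0.20 in the pairwise comparisons.

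**Figure D4:**
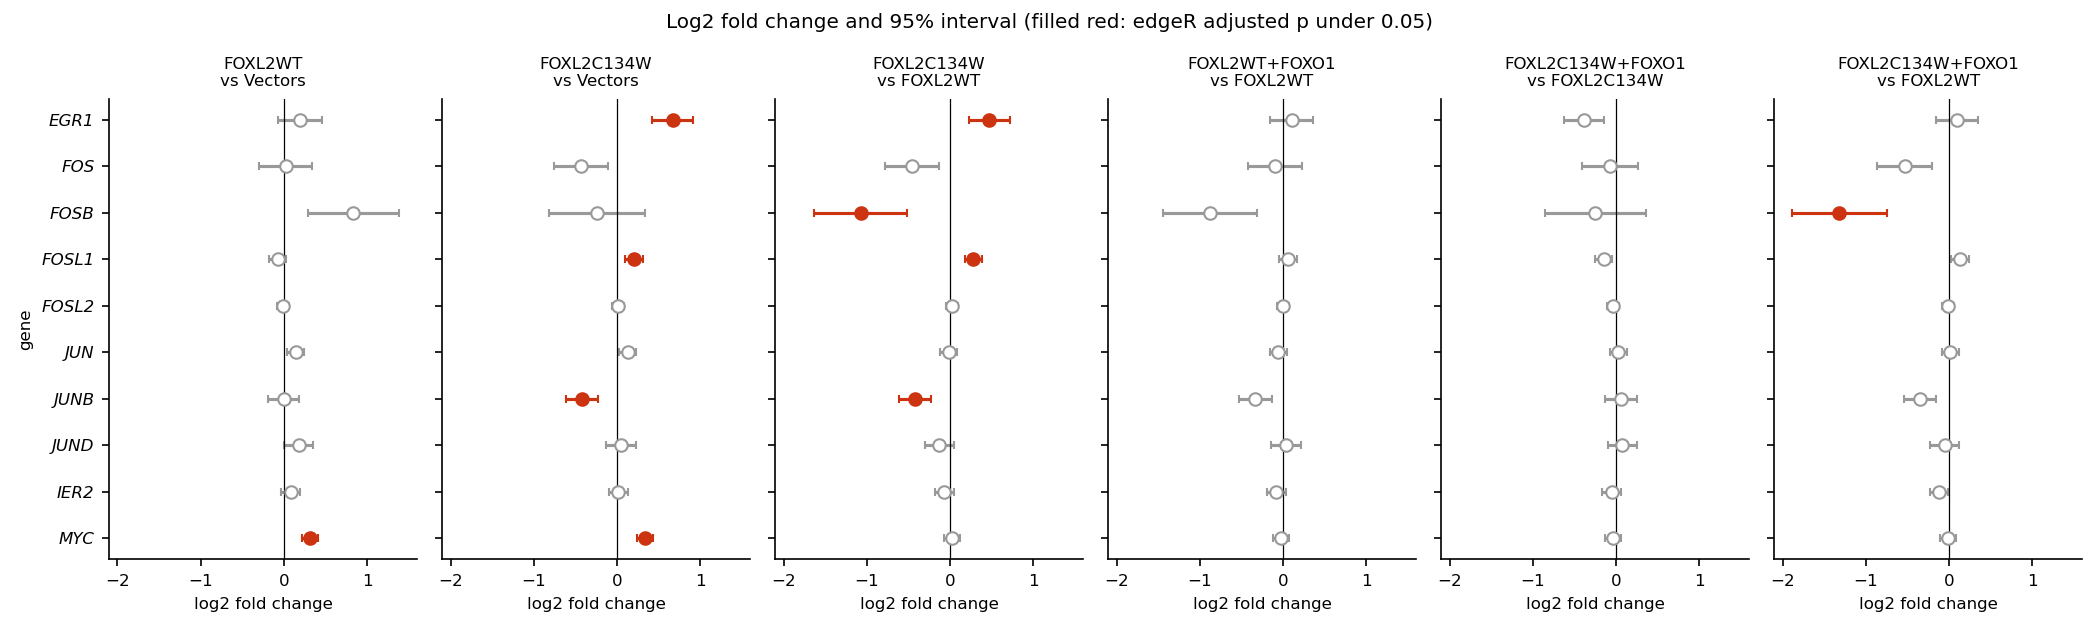
Log2 fold change (edgeR) with its 95% interval for each gene in 6 comparisons, filled red where called. MYC is called against Vectors in both FOXL2 forms, and EGR1, FOSL1, FOSB and JUNB are called between the FOXL2 forms.

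FOXO1-3A was added to test whether it alters the response to FOXL2C134W. In FOXL2WT + FOXO1 against FOXL2WT, edgeR called 0 of the 10 genes with a background of 0.0505%, 2 genes had an unadjusted p under 0.05, and DESeq2 called 1, JUNB. In FOXL2C134W + FOXO1 against FOXL2C134W, edgeR called 0 with a background of 0.714%, 2 genes had an unadjusted p under 0.05, and DESeq2 called 0. In FOXL2C134W + FOXO1 against FOXL2WT, edgeR called 1, FOSB, with a background of 1.69%, 5 genes had an unadjusted p under 0.05, and DESeq2 called 1, JUNB. The interaction, the effect of FOXO1 in FOXL2C134W minus that in FOXL2WT, was called by edgeR for 0 genes against 1.38% of all genes, for 3 genes at an unadjusted p under 0.05, and by DESeq2 for 0.

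The interaction estimates were -0.48 for EGR1 (95% interval -0.84 to -0.13, edgeR adjusted p = 0.205), -0.21 for FOSL1 (-0.36 to -0.07, edgeR adjusted p = 0.167) and 0.39 for JUNB (0.12 to 0.67, edgeR adjusted p = 0.165). That of JUNB was called without FOXL2C134W replicate A (0.51, edgeR adjusted p = 0.0178). The log2 fold change of JUNB from FOXL2WT to FOXL2C134W + FOXO1 was -0.35 (edgeR adjusted p = 0.057), not called, and JUNB was called there by DESeq2 (-0.35, adjusted p = 0.00792) and by edgeR without FOXL2C134W + FOXO1 replicate B (-0.47, edgeR adjusted p = 0.0213). FOXO1 mRNA itself reached 117 ± 14.5 CPM in FOXL2WT + FOXO1 and 43.2 ± 4.06 CPM in FOXL2C134W + FOXO1, so its RNA level differed between the backgrounds. SMAD3 mRNA was lower in both than without FOXO1, at 969 ± 10.8 CPM and 392 ± 16.9 CPM. FOXL2 was lower in FOXL2WT + FOXO1 than in FOXL2WT, at 384 ± 14.97 against 561 ± 5.89 CPM (-0.55, edgeR adjusted p = 0.031), and was at 152 ± 20.1 against 147 ± 27.0 CPM in the mutant pair (0.05, edgeR adjusted p = 0.921). The effect of FOXO1 on the members cannot be told apart from these differences.

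Both conditions with FOXO1 were also set against Vectors, a pair of comparisons added after the data were seen. In FOXL2WT + FOXO1, MYC was higher (log2 fold change 0.28, edgeR adjusted p = 0.00132) and JUNB lower (-0.33, edgeR adjusted p = 0.0489), with a background of 3.78%. In FOXL2C134W + FOXO1, MYC (0.30, edgeR adjusted p = 0.000322) and JUN (0.16, edgeR adjusted p = 0.0444) were higher, and JUNB (-0.35, edgeR adjusted p = 0.0172) and FOS (-0.51, edgeR adjusted p = 0.0465) lower, with a background of 9.33%. The MYC calls held without any 1 library, but with DESeq2 and transcript length offsets MYC (adjusted p = 0.076) and JUNB (0.054) in FOXL2WT + FOXO1, and FOS (0.225) and JUN (0.0622) in FOXL2C134W + FOXO1, were not called. That of JUNB in FOXL2WT + FOXO1 was lost without any 1 of the 6 libraries, at -0.39 to -0.29 (largest edgeR adjusted p = 0.164). In FOXL2C134W + FOXO1 the call of JUNB was lost without replicate B or C of Vectors or replicate A or C of FOXL2C134W + FOXO1, with log2 fold changes from -0.33 to -0.28 (largest edgeR adjusted p = 0.0894). That of JUN was lost without replicate A or B of Vectors or replicate B or C of FOXL2C134W + FOXO1, at 0.14 to 0.16 (largest edgeR adjusted p = 0.168). That of FOS was lost without any 1 library other than FOXL2C134W + FOXO1 replicate B, at -0.54 to -0.41 (largest edgeR adjusted p = 0.172). EGR1 was not called in either, with 0.30 (95% interval 0.04 to 0.56) and 0.29 (0.04 to 0.55).

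Genes around the members were counted in 7 lists. In the comparisons without FOXO1, each count is followed by its range over the 9 alternatives and the 6 fits without 1 library. The AP-1 partners, bZIP proteins that pair with JUN or FOS or bind related sites, had 5 of 11 tested genes called between FOXL2C134W and FOXL2WT, 4 lower (ATF3, MAFF, MAFG, JDP2) and 1 higher (ATF7), where 11.2% of all genes were called (range of the count 2 to 6), and their median log2 fold change was -0.21, against -0.01 for all genes. ATF3, a stress-induced partner of JUN, went from 41.7 ± 3.96 CPM (SD, n = 3) in FOXL2WT to 21.5 ± 0.922 CPM in FOXL2C134W (-0.95, edgeR adjusted p = 5.79e-07). MAFF, a small MAF protein, went from 51.9 ± 1.65 to 40.9 ± 1.15 CPM (-0.34, edgeR adjusted p = 0.000469). Against Vectors, FOXL2C134W had 4 partners lower and 1 higher of 11 (4 to 6, all genes 14.7%), with BATF2, ATF3 and MAFF the most changed. FOXL2WT had BATF2 lower and ATF3, JDP2 and MAFK higher (1 to 4, all genes 6.07%). This BATF2 result was called in 6 of 15 other fits. In FOXL2WT against Vectors, ATF3 (0.275, adjusted p = 0.471) and JDP2 (0.301, adjusted p = 0.0654) were not called with DESeq2 and transcript length offsets. ATF7 between the FOXL2 forms was called in 10 of 15 other fits.

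The AP-1 targets, genes known to be driven through AP-1 sites, had 7 of 18 tested genes called in FOXL2C134W against Vectors, all lower (CXCL8, IL6, MMP1, PLAU, S100A6, HMOX1, PLAUR), where 14.7% of all genes were called and 7.24% were lower (range 5 to 8). Their median was -0.23, against 0.00 for all genes. CXCL8, a neutrophil chemokine, went from 144 ± 6.92 CPM in Vectors to 53.5 ± 3.25 CPM (-1.42, edgeR adjusted p = 1.43e-10), and the cytokine IL6 from 14.5 ± 1.17 to 9.60 ± 0.724 CPM (-0.59, edgeR adjusted p = 0.000807). The MMP1 result was called in 10 of 15 other fits. Many of the AP-1 targets also answer to NF-kappaB. Against FOXL2WT, 4 of 18 were called, all lower (1 to 5, all genes 11.2%), with CXCL8 at -0.86 (edgeR adjusted p = 5.5e-07). FOXL2WT against Vectors had 4 lower and 1 higher (4 to 6, all genes 6.07%), the last being VEGFA, the angiogenic growth factor (0.34, edgeR adjusted p = 0.00102).

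The MYC targets, mostly genes of nucleolar and nucleotide synthesis, had 11 of 18 called in FOXL2C134W against Vectors, 10 higher and 1 lower, where 14.7% of all genes were called and 7.48% were higher (range 6 to 12), with a median of 0.14. NOLC1, a nucleolar chaperone, went from 209 ± 6.66 to 252 ± 17.7 CPM (0.27, edgeR adjusted p = 0.00443). In FOXL2WT, where MYC rose by a like amount, 4 were higher and 1 lower (2 to 8, all genes 6.07%), with a median of 0.09. Between the FOXL2 forms 4 were higher (1 to 5, all genes 11.2%), among them NCL, the nucleolar protein nucleolin (0.31, edgeR adjusted p = 0.00343). The MYC network, partners and antagonists of MYC, had 3 of 11 called in FOXL2C134W against Vectors, MYCN, MXD3 and MXI1, all lower (1 to 6, all genes 14.7%). MYCN was called in 14, MXD3 in 13 and MXI1 in 11 of 15 other fits. In FOXL2WT 1 was called, MYCN, lower (0 to 4, all genes 6.07%), which held in 6 of 14 other fits. Between the forms MNT and MLXIP were higher and MAX lower (0 to 4, all genes 11.2%). MAX was called in 6 of 15 other fits, and MNT (adjusted p = 0.647) and MLXIP (0.119) were not called with DESeq2 and transcript length offsets.

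Of 19 other immediate early genes tested, 5 were higher and 1 lower in FOXL2WT against Vectors (3 to 7, all genes 6.07%), and 3 higher and 1 lower in FOXL2C134W (2 to 5, all genes 14.7%). CCN2, a matricellular growth regulator, was at 927 ± 56.2 CPM in Vectors. It reached 1284 ± 68.0 CPM in FOXL2WT (0.47, edgeR adjusted p = 1.84e-05) and 1220 ± 68.8 CPM in FOXL2C134W (0.40, edgeR adjusted p = 3.52e-05). EGR2, EGR3 and EGR4, the other EGR genes, had at most 6 counts in any library and were not tested. Between the FOXL2 forms, 2 of the 19 were called, ZFP36L2 and SGK1, both lower, a share near the 11.2% of all genes (0 to 2). ZFP36L2 was called in 8 and SGK1 in 11 of 15 other fits. The MAPK and SRF input list had 1 of 18 genes called in FOXL2C134W against Vectors, SRF itself, which binds CArG boxes (0.32, edgeR adjusted p = 0.00657), a share below the 14.7% of all genes (1 to 4). In FOXL2WT, SRF was higher and ELK3 lower (0 to 4, all genes 6.07%), called in 14 and 8 of 15 other fits. Between the forms edgeR called 0 of its 18 genes, with 3 at an unadjusted p under 0.05 and 0 called by DESeq2 (0 to 2, all genes 11.2%). The MAPK feedback inhibitors had 2 higher and 4 lower of 14 in FOXL2C134W against Vectors (3 to 7, all genes 14.7%), with DUSP10, a phosphatase of JNK and p38, at -0.67 (edgeR adjusted p = 0.000105). They had DUSP1, which is also among the other immediate early genes, higher and DUSP10 lower in FOXL2WT (0 to 2, all genes 6.07%). Between the forms, SPRED2 and DUSP7 were higher and DUSP16 lower (1 to 5, all genes 11.2%). In FOXL2WT, DUSP1 was called in 8 and DUSP10 in 9 of 15 other fits. Between the forms, SPRED2 was called in 12, DUSP7 in 13 and DUSP16 in 9 of 15. With DESeq2 and transcript length offsets, DUSP16 was at -0.07 (adjusted p = 0.944).

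**Figure D5:**
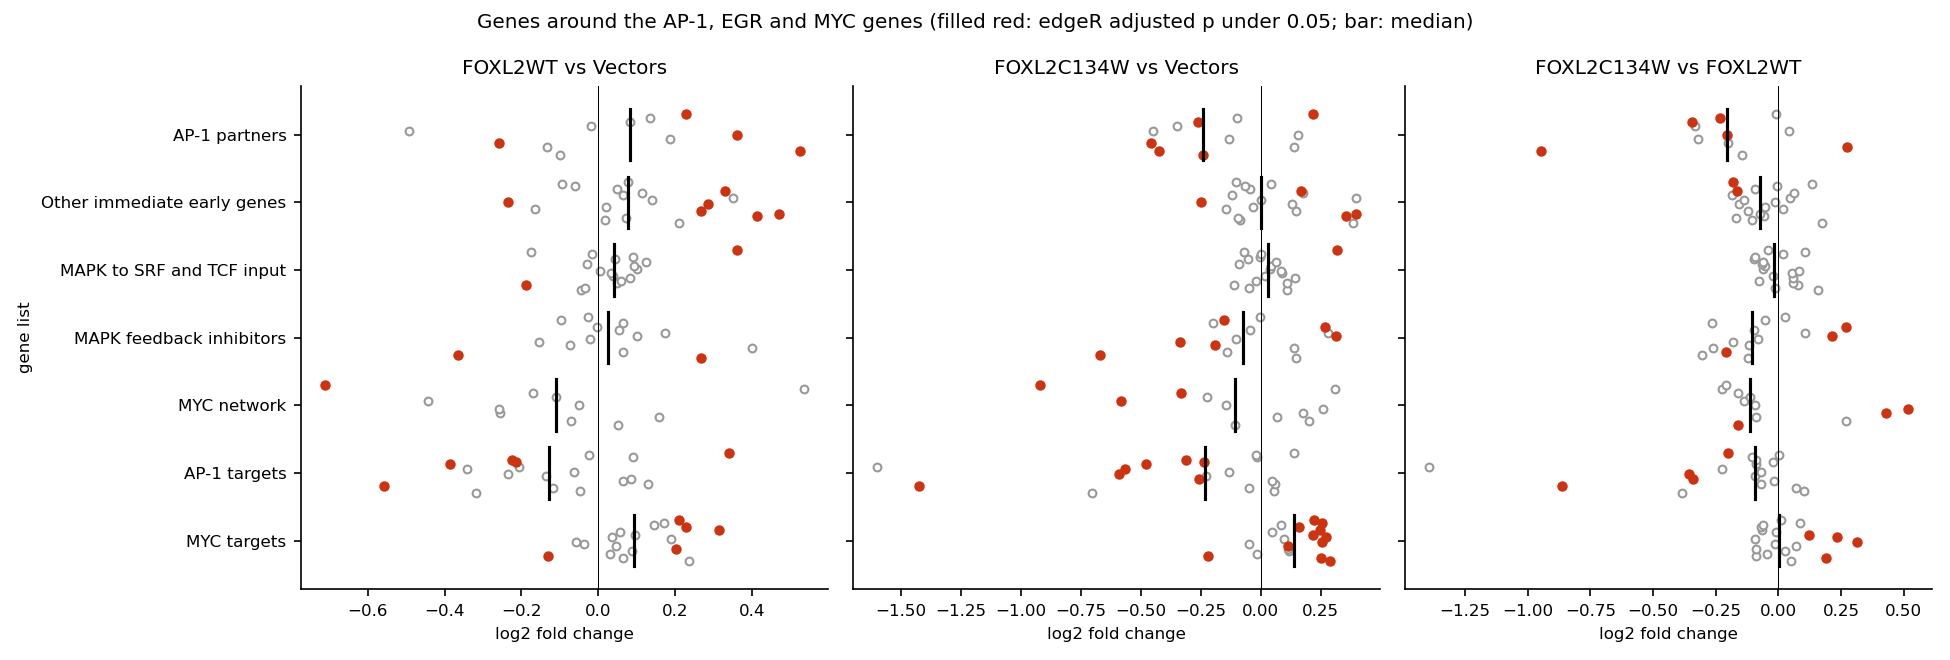
Log2 fold change of each tested gene of the 7 lists in 3 comparisons, filled red where called by edgeR, with a bar at the median of the list. AP-1 targets called in FOXL2C134W against Vectors are all lower, and 10 of the 11 called MYC targets are higher.

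With FOXO1-3A added to FOXL2WT, edgeR called 1 gene of the 7 lists, ATF3, where 0.0505% of all genes were called. ATF3 fell by 0.55 on the log2 scale (edgeR adjusted p = 0.00403). It was not called without FOXL2WT + FOXO1 replicate B (-0.51, edgeR adjusted p = 0.067) or with DESeq2 and transcript length offsets (-0.46, adjusted p = 0.249). The other lists had 0 called there, with 0 to 7 genes at an unadjusted p under 0.05 and 0 to 1 called by DESeq2. With FOXO1-3A added to FOXL2C134W, edgeR called 0 in each list (all genes 0.714%), with 1 to 4 at an unadjusted p under 0.05 and 0 to 2 called by DESeq2. In FOXL2C134W + FOXO1 against FOXL2WT, ATF3, MAFG, BATF2, MAFF, ZFP36L2, CXCL8 and IL6 were lower (all genes 1.69%). BATF2 was called in 5 of 15 other fits, being lost without any 1 of the 6 libraries (largest adjusted p = 0.578, with DESeq2 and transcript length offsets), and IL6 was not called with DESeq2 and transcript length offsets (adjusted p = 0.222). ATF3 was at 18.4 ± 0.947 CPM there (-1.17, edgeR adjusted p = 3.47e-08) and CXCL8 at 49.2 ± 3.98 CPM (-0.99, edgeR adjusted p = 7.29e-08). The remaining lists had 0 called by edgeR, 0 to 4 at an unadjusted p under 0.05 and 0 to 3 by DESeq2. For the interaction edgeR called 0 in each list (all genes 1.38%), with 1 to 4 at an unadjusted p under 0.05 and 0 to 1 called by DESeq2.

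By the rule for naming listed genes, 17 genes in FOXL2WT against Vectors, 19 in FOXL2C134W against Vectors and 17 between the FOXL2 forms qualified. Of these, 8, 12 and 4 stayed called under every alternative and without any 1 library. Listed genes given above with an edgeR adjusted p in these 3 comparisons are among them. Those given in a comparison only with an adjusted p of DESeq2 and transcript length offsets are not.

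Lastly, the genes whose log2-CPM over the 15 libraries followed each of 3 members most closely were picked by Pearson's r, a description over libraries that share conditions and depth. A condition pattern like that of the member follows from this choice and is not a separate result. EGR1 was most like DOCK6 (r = 0.953), ATXN2L (0.928) and ABCA3 (0.927). As with EGR1, their mean levels were highest in FOXL2C134W, with DOCK6 at 12.2 ± 0.677 CPM there and 9.13 ± 0.381 CPM in Vectors. MYC was most like RRP12 (0.946), KRT80 (0.941) and BDNF (0.94), which were lowest in Vectors, BDNF at 160 ± 7.02 CPM there and above 200 CPM on average elsewhere. JUN was most like DDX49 (0.92), PMPCA (0.896) and ERCC2 (0.879), of which ERCC2 went from 74.2 ± 3.24 CPM in Vectors to 95.4 ± 4.82 CPM in FOXL2C134W.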

How the data were processed

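RNA was measured in 15 libraries of HGrC1 cells by stranded mRNA sequencing with 75-base single-end reads. The authors estimated transcript abundance with Salmon 1.1.0 on hg38 transcripts, summed it to genes and deposited rounded estimated counts without normalization. The deposited TPM values per transcript, scaled by Salmon within each library, were summed to genes for levels between genes and family shares. The GENCODE release is not given in the sources used here, and coordinates came from GENCODE 44, which held 98.4% of the transcripts. Samples were grouped by their labels, and 0 columns were left unmapped. Salmon shares reads between similar transcripts, so transcript shares are uncertain.

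All libraries entered one edgeR 4.0.16 quasi-likelihood fit (R 4.3.3) with TMM scaling and filterByExpr, without a replicate block. A gene was called where its p, adjusted by Benjamini-Hochberg over 13868 genes, was under 0.05. Totals ran from 14962245 to 25339094 counts, and a count of 0 allows up to 3. No replicate pair was within counting noise (chi-square over its degrees of freedom 2.21 to 8.84). Log2-CPM had a prior count of 2. Promoter windows were taken from RefSeq, and motifs were searched by exact letters in Python 3.11.15 with pandas 2.3.3.

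The genes and lists were chosen with earlier results of these data known. Named were the 10 members, the transfected genes, for each list and comparison up to 3 called genes with the largest change, and the 3 genes most like EGR1, JUN and MYC. Other called genes of the lists are given by name only and were chosen after their values were seen, as were the comparisons of both FOXO1 conditions with Vectors. The lists were written from general knowledge, and no set test was run. The alternatives were DESeq2 1.42.0, DESeq2 with transcript length offsets (as in the study), DESeq2 size factors in edgeR, a minimum of 1 count in any library or of 10 in every library, only the groups compared, a replicate block, and each library left out. Offsets for GC content and gene length (lowess span 0.3) were added after seeing the data. Fits were tested on simulated data.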

Additional observations from a re-analysis of the deposited data

How the results depend on the processing

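No called value changed direction under any alternative. MYC against Vectors in both FOXL2 forms, EGR1 and JUNB and FOSL1 in FOXL2C134W against Vectors, and FOSL1 and JUNB between the forms were called in all 9 alternatives and all 6 fits without 1 library. In FOXL2WT against Vectors the count of called members went from 1 to 2 with a filter of 1 count in any library (FOSB added), to 2 with 10 counts in every library, and to 4 with only the groups compared (FOSB, JUN, JUND added). In FOXL2C134W against Vectors it was 4 to 5 in all fits, and between the forms 3 to 5. In FOXL2WT + FOXO1 against FOXL2WT it was 1, JUNB, with DESeq2, with the 1-count filter, with only the groups compared and with the GC content offset, and 0 in each of the 6 fits without 1 library. In FOXL2C134W + FOXO1 against FOXL2WT it was 0 with DESeq2 and length offsets, 3 with the 1-count filter, 2 with the 10-count filter, 2 with only the groups compared, 3 with the GC content offset, 2 with the gene length offset, and 0 to 1 without 1 library. The interaction had 1, JUNB, with the 1-count filter and with the GC content offset, and 0 to 1 without 1 library. DESeq2 gave FOSB no adjusted p in the comparisons where edgeR called it. Against Vectors, DESeq2 with length offsets did not call MYC (0.26, adjusted p = 0.076) or JUNB (0.054) in FOXL2WT + FOXO1, nor FOS (0.225) or JUN (0.0622) in FOXL2C134W + FOXO1, and the gene length offset did not call this JUN result (edgeR adjusted p = 0.0597). The causes were not tested.

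Over all genes the replicate letters showed no pairing of the samples. Deviations of same-letter libraries correlated between -0.164 and 0.166, over 0.1 in 2 of 30 pairs, and 5 of 15 libraries were most like one of their own letter. These correlations cannot settle pairing for a single gene, and FOS lay above its condition mean in every B library and below it in every C library. With the replicate block the count was 2 (FOS and FOSB) in FOXL2C134W + FOXO1 against FOXL2WT, FOS was also called against Vectors (edgeR adjusted p = 0.0164) and FOXL2WT (0.0169) in FOXL2C134W, and JUNB in FOXL2WT + FOXO1 (0.0587) and JUN in FOXL2C134W + FOXO1 (0.0533) were no longer called against Vectors.

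The share of all genes called ran over the alternatives from 2.17% to 12.6% in FOXL2WT against Vectors, 7.0% to 17.8% in FOXL2C134W against Vectors, 5.49% to 15.1% between the forms, 0.0142% to 1.14%, 0.0356% to 2.53% and 0.256% to 4.7% in the comparisons with FOXO1 in the order of the report, and 0.32% to 3.01% in the interaction. With the size factors of DESeq2, all 50 mean CPM values moved by less than 1 SD, and conditions shifted by at most 0.00648 on the log2 scale. Depth limits FOSB most, followed by EGR1 and FOS.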
